A study of Drosophila melanogaster with 2 samples.

Results

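The nuclear tRNA genes of *Drosophila melanogaster* were examined for peaks of CG12768, a protein with a MADF domain. All genes that the Ensembl release 115 annotation (BDGP6, the dm6 assembly) calls tRNA on the major chromosome arms (2L, 2R, 3L, 3R and X, and chromosome 4) were taken. This gave 290 of the 18164 annotated genes there. A gene was called bound when the summit of a peak in the authors' thresholded list lay within 500 bp of its start, and 51 tRNA genes met this. The flies were adult males of unknown age, used whole, from 1 transgenic line that stably carries CG12768 with GFP at its C terminus. An antibody against GFP was used for chromatin immunoprecipitation of DNA sonicated to between 200 and 800 bp. There was 1 group of 2 biological replicates, with no second genotype, treatment or time, so tRNA genes were set beside other genes of the same lists and no p-value is given. No list from a mock immunoprecipitation in flies without the tag was used here. The thresholded list held 6066 peaks, and the pooled list and each replicate's list held 30000 peaks, background included. The lists give no read counts, so depth is unknown, and the 95% Wilson intervals below cover counting error only, over genes that may share a peak.

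Transfer RNAs carry amino acids to the ribosome, and the genes that accept 1 amino acid are called an isotype. RNA polymerase III transcribes these genes from promoters that lie inside them: box A and box B are read by TFIIIC, which places TFIIIB just upstream of the start. Most tRNAs are encoded by several identical genes, many of them in clusters, and tRNA genes are short and often lie close to genes read by RNA polymerase II.

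The sequences of 4 bound genes with high peak signal, and of unbound copies of the same isotype, are given to show what bound and unbound genes shared. They were read from the RefSeq copy of the dm6 assembly, 5′ to 3′ on the gene's strand, with 60 bp before and 20 bp after the gene. Capitals mark matches to fixed letters for box A (TNGCNNAGT) and box B (GTTCNANNC). A gene with no match may still hold the box in other letters. tRNA:Tyr-GTA-1-8 (chr3R:8669061-8669234, minus strand) held the strongest peak of any tRNA gene, and tRNA:Tyr-GTA-1-1 (chrX:21304421-21304595, minus strand), which was not bound, has the same 73 bases of exon around a different intron.
tRNA:Tyr-GTA-1-8: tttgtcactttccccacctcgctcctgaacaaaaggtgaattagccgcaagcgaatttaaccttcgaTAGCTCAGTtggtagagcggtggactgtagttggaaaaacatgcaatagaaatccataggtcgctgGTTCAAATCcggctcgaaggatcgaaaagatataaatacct
tRNA:Tyr-GTA-1-1: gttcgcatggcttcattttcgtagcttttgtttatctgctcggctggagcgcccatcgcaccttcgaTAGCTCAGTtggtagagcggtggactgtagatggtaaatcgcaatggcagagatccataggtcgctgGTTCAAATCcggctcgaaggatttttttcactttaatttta
tRNA:Gln-TTG-1-2 (chr3R:26947243-26947394, minus strand) and tRNA:Gln-TTG-1-3 (chr3R:26947492-26947643, minus strand) shared the next peak, and tRNA:Gln-TTG-1-1 (chr3L:11801451-11801602, minus strand), an unbound gene, has the same 72 bases in other flanks.
tRNA:Gln-TTG-1-2: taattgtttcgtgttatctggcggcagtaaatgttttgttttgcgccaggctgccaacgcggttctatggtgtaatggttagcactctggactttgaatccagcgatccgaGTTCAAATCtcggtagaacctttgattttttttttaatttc
tRNA:Gln-TTG-1-3: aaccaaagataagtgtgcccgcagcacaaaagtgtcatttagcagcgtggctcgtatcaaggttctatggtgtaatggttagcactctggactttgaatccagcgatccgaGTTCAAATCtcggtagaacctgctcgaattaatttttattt
tRNA:Gln-TTG-1-1: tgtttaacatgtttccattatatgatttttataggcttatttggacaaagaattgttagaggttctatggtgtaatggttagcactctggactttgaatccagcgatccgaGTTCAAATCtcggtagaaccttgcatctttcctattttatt
tRNA:Leu-TAA-2-1 (chr3R:24112904-24113067, plus strand) is a bound gene whose sequence occurs once among the tRNA genes.
tRNA:Leu-TAA-2-1: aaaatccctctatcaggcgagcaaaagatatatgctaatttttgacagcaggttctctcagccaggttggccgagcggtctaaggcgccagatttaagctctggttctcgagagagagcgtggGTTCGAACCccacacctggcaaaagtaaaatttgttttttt

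Bound genes made up 17.6% of tRNA genes (51 of 290, interval 13.6 to 22.4). Measured at the same single start per gene, 23.1% of protein-coding genes were bound, and with every annotated transcript start allowed the share was 25.9%. Among 3929 other non-coding genes 8.68% were bound, below the interval of the tRNA share. Small nucleolar RNA genes, which guide RNA modification, stood at 9.29% (25 of 269), and genes of the ncRNA class stood at 9.23%. The snRNA genes, which encode spliceosomal and related RNAs, gave 15.6% (5 of 32), within the interval of the tRNA share. Pseudogenes gave 3.73%. Of all bases on the 6 arms, 4.11% lay within 500 bp of a thresholded summit.

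Because a peak at a protein-coding promoter can reach a neighbouring tRNA gene, genes were split by distance to the nearest protein-coding start. Of the 79 tRNA genes within 1000 bp of such a start, 21 were bound (26.6%, interval 18.1 to 37.2), against 18.3% of other non-coding genes placed as close. Of the 211 with no protein-coding start within 1000 bp, 30 were bound (14.2%, interval 10.1 to 19.6). The same distance left 4.92% of 2823 other non-coding genes bound (interval 4.19 to 5.79), so these intervals did not overlap. Of the bases that far from protein-coding starts, 1.77% lay within 500 bp of a summit. The tRNA share was above that of other non-coding genes in each of the 5 distance bands. It was 37.5% against 22.6% up to 500 bp, 18.2% against 6.86% beyond 1000 and up to 2000 bp, and 10.9% (12 of 110) against 3.12% (40 of 1281) over 5000 bp. The intervals of the 2 kinds of gene overlapped in both bands up to 1000 bp, and those of the 3 farther bands did not. Genes that shared a peak were counted separately, so these intervals are too narrow, and no difference was tested. Over 5000 bp, 4 of the 12 bound tRNA genes shared 1 peak, 3 shared another and 2 shared a further one. With each run of neighbouring tRNA genes over 1000 bp from protein-coding starts counted once, 16 of 117 runs had a bound gene (13.7%). Other non-coding genes were not grouped into runs, and a run can have several starts in reach of a summit, so this share has no like value beside it.

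**Figure D1:**
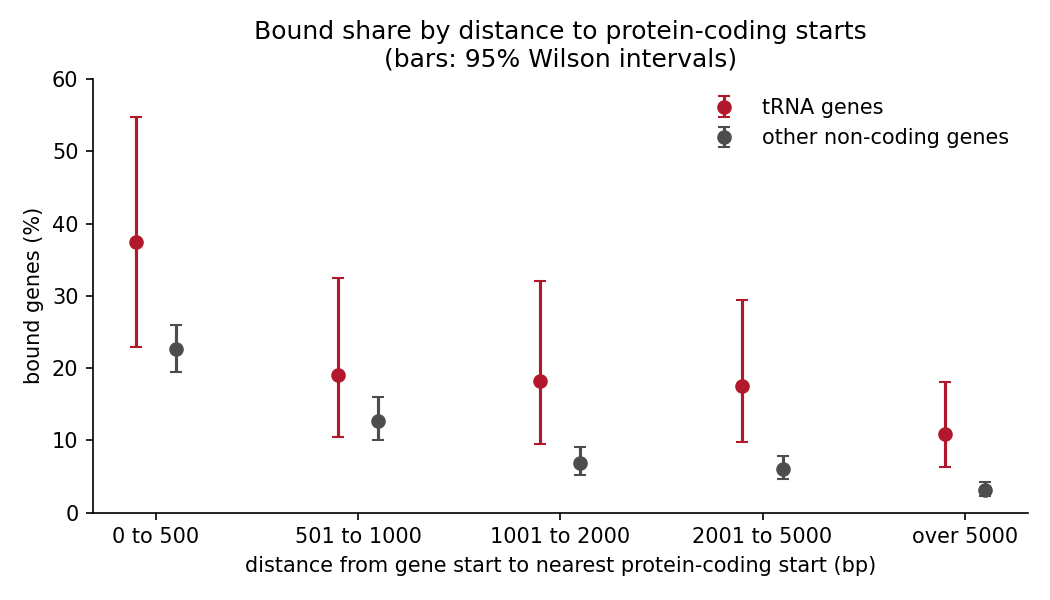
Share of bound genes (%, y axis) against distance from the gene start to the nearest protein-coding start (bp, x axis), for tRNA genes (red) and other non-coding genes (grey); points are shares and bars are 95% Wilson intervals. The red points lie above the grey ones in every band, with 10.9% against 3.12% over 5000 bp. Genes that share a peak are counted separately, so the bars are too narrow.

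Summit positions were read along each gene's strand. For the 51 bound genes, the nearest summit stood at a median of −56 bp, with 31 upstream and 20 at or downstream of it, and 12 lay within 100 bp. Around the tRNA genes over 1000 bp from protein-coding starts, pairs of a summit and a start were counted, so a summit near several starts counts once for each. The 250 bp before the start held 61.6 thresholded pairs per 1000 starts (13 pairs from 11 summits), and the first 250 bp from the start held 37.9 (8 pairs from 7 summits). Other non-coding genes at that distance gave 15.9 and 10.3 pairs per 1000 starts. In the pooled list the 2 tRNA values were 232 and 180, against 68.7 and 64.1. In the thresholded list the tRNA line had a second high bin, 2000 to 2249 bp downstream, with 10 pairs from 9 summits, or 47.4 per 1000 starts. In the pooled list that bin held 109 pairs per 1000 starts, below the bins at the start.

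**Figure D2:**
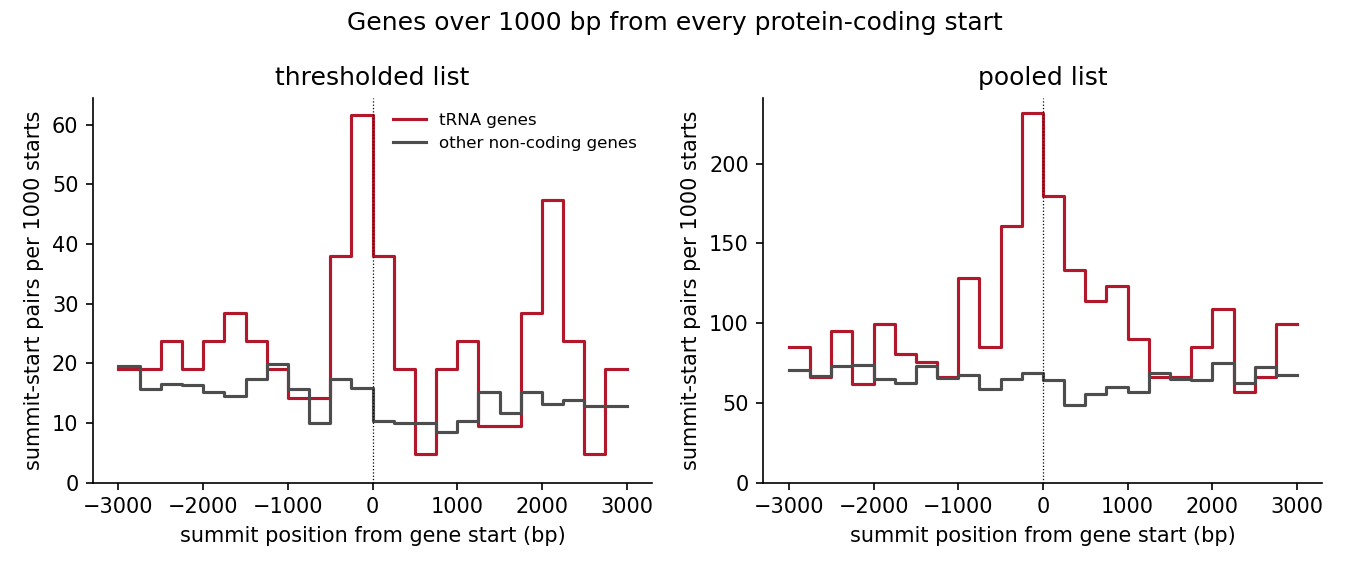
Pairs of a summit and a gene start per 1000 starts in 250 bp bins (y axis) by position from the start in bp (x axis, negative is upstream), for tRNA genes (red) and other non-coding genes (grey) over 1000 bp from every protein-coding start; left, thresholded list; right, pooled list. The tRNA line is highest in the bin just before the start, at 61.6 and 232, while the grey line stays between 8.50 and 17.4 within 1000 bp of the start on the left.

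A total of 36 thresholded peaks had their summit within 500 bp of a tRNA start. Of these, 23 had 1 tRNA start in reach, 8 had 2 and 5 had 3 or more, so 30 of the bound genes shared a peak with another and 21 had their own. The nearest annotated start of any gene was a tRNA gene for 29 of the 36 peaks, a protein-coding gene for 6 and a snoRNA gene for 1. The strongest peak, equally near to a tRNA start and a protein-coding start, was counted among the 29. Only 3 summits lay inside a tRNA gene, at tRNA:Arg-TCG-2-4, tRNA:Gln-CTG-4-1 and tRNA:Tyr-GTA-1-6, and 15 lay within 100 bp of one. The signal value, the peak caller's own measure of height, had a median of 187.8 at these peaks, against 222.6 over all 6066. At the 11 peaks within 500 bp of a protein-coding start the median was 248.9 (all such peaks of the list, 234.7). At the 25 others it was 180.4 (all such peaks, 211.4) and the highest was 468.0.

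The strongest peak was at tRNA:Tyr-GTA-1-8 (FBgn0012024, 3R 8669081-8669174), with signal 1193 and rank 101 in the list. It ranked 115 in replicate 1 and 117 in replicate 2, a close match. Its summit lay 222 bp upstream of the tRNA gene and also 222 bp from a start of CG8036, so both starts were equally near. The peak next in order, with signal 1043, served tRNA:Gln-TTG-1-2 and tRNA:Gln-TTG-1-3, whose identical genes are printed above. It ranked 43 in replicate 1 and 641 in replicate 2, its summit lay 159 bp upstream of the one and 90 bp downstream of the start of the other, and a start of Spag1 was 337 bp away. tRNA:Leu-TAA-2-1 had signal 358.8, with rank 3407 in replicate 1 and 805 in replicate 2. This order was the reverse of that at the Gln genes.

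Away from protein-coding starts the highest signal was 468.0 at tRNA:Ala-TGC-2-1 (2R 17392215-17392286), with its summit 364 bp downstream of the start and ranks of 534 and 1756 in replicates 1 and 2. tRNA:Glu-TTC-1-5 followed with 410.7 and ranks of 1047 and 1289, although a snoRNA gene, snoRNA:185, lay closer to that summit. tRNA:Phe-GAA-1-4 and tRNA:Phe-GAA-1-5 are transcribed away from each other and shared 1 peak of signal 290.8, whose summit lay between them, 116 and 48 bp upstream of their starts. Its ranks were 1839 and 2546. tRNA:Arg-CCT-1-2 and tRNA:Arg-CCT-1-3 were also divergent around 1 summit (signal 258.6, at −243 and −208 bp), here with the higher rank in replicate 2, 1821 against 4475. The 3 Cys genes tRNA:Cys-GCA-1-1, tRNA:Cys-GCA-1-2 and tRNA:Cys-GCA-1-3 lay in 1 cluster inside Cht7 and shared a peak of signal 239.6 that ranked 2671 and 2945.

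Other genes among the 15 of highest signal lay nearer to protein-coding genes. tRNA:Arg-TCT-1-1 and tRNA:Met-CAT-1-1 shared a peak of 351.9 whose summit was 2 bp from the start of the former, and it ranked 555 in replicate 1 and 7039 in replicate 2. At tRNA:Ile-AAT-1-3 (351.2) and tRNA:His-GTG-1-3 (342.9) the protein-coding starts of ATP8A and CG8490 were closer to the summit than the tRNA start was. At tRNA:Gly-TCC-1-1 (248.9) the summit lay 1 bp from a start of CG31248, and the ranks were 1167 and 12681. The 500 bp limit left tRNA:Gly-GCC-1-13 (430 bp), tRNA:Lys-CTT-1-12 (481 bp) and tRNA:Leu-TAG-1-2 (498 bp) just inside. tRNA:Gly-GCC-1-9 (519 bp), tRNA:Val-CAC-2-5 (528 bp) and tRNA:Tyr-GTA-1-7 (536 bp) fell just outside.

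Clusters were defined as runs of tRNA genes with at most 5000 bp between neighbouring starts. There were 144, of which 76 held a single gene, and 29 clusters (20.1%) had a bound member. Single genes were bound in 8 of 76 cases, clusters of 2 or 3 genes had a bound member in 15 of 52 and clusters of 4 or more in 6 of 16. Larger clusters have more starts at which a summit can fall, and per gene the shares were 10.5%, 21.2% and 18.8%, with overlapping intervals. The largest clusters differed from each other. The 11 genes at 3R 17617761-17631750 included 4 bound genes, and the 11 genes at 2R 6161535-6171759, with anticodons for Arg, Asn, Ile and Lys, included none. Of the clusters with 7 genes, those that begin at 13430282 and 19725620 on 2R held 4 bound genes each and the one on X held none. The cluster of 6 at 3L 3095737 held 4 bound genes served by 1 peak, and 6 Glu-CTC genes at 3L 1397695 held none.

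The number of bound genes varied across the isotypes. Phe had 4 of 8 genes bound through 3 peaks, Cys 3 of 7 through 1 peak, Ile 4 of 11 and the initiator Met (iMet) 2 of 6. Leu had 7 of 22 through 6 peaks, the most peaks of any isotype, followed by Ala with 5 of 17 and Glu with 5 of 19. Gln had 3 of 12, His 1 of 5, Tyr 2 of 10, elongator Met 1 of 6, Arg 4 of 26 and Ser 3 of 20. The lowest shares among isotypes with a bound gene were in Trp (1 of 8), Gly (2 of 20), Val (1 of 15), Pro (1 of 17) and Lys (1 of 19). The only selenocysteine tRNA gene, tRNA:SeC-TCA-1-1, was bound, with signal 170.0 and a summit 56 bp upstream. No gene was bound for Asn (10 genes), Asp (14) or Thr (17). In the pooled list, though, 5 Asn, 7 Asp and 9 Thr genes had a summit in reach. Genes of an isotype share clusters and sequence, so these counts are not of independent sites.

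**Figure D3:**
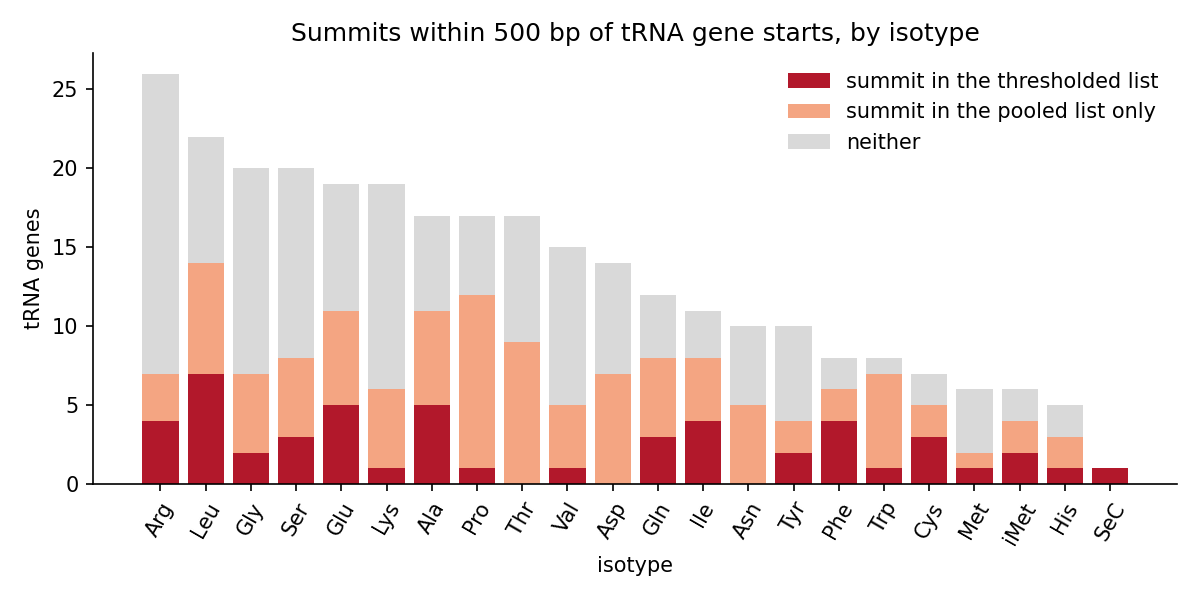
Number of tRNA genes (y axis) per isotype (x axis), split into genes with a thresholded summit within 500 bp (red), genes with such a summit in the pooled list only (orange) and genes with neither (grey). Leu has the most bound genes, 7 of 22, and Asn, Asp and Thr have none.

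Identical copies of a tRNA gene often differed in being bound. The 290 genes include 238 whose whole gene sequence is shared with at least 1 other, in 43 sequences. Of these sequences 20 had bound and unbound copies, 1 had every copy bound (tRNA:Leu-TAG-1, 2 genes with 1 peak) and 22 had none bound. The 9 copies of tRNA:Ile-AAT-1 had 4 bound, the 13 of tRNA:Lys-CTT-1 had 1 and the 12 of tRNA:Asp-GTC-1 had 0. Genes with a sequence of their own were bound in 13 of 52 cases (25.0%, interval 15.2 to 38.2) and genes with identical copies in 38 of 238 (16.0%, interval 11.9 to 21.2). The sources used here do not say how reads that match several copies were treated, and the part of this in these shares was not tested.

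Fixed letters for the boxes of the internal promoter were searched anywhere within bound and unbound genes, with no test of the differences. A gene without a match may still hold the box in other letters, so these shares are of matches, not of boxes. Box B, as GTTCNANNC on the gene's strand, was in 92.2% of bound and 93.7% of unbound genes (93.4% of all 290). The stricter GTTCGANNC was in 56.9% and 54.8% (55.2% of all), and box A as TNGCNNAGT was in 43.1% and 33.5% (35.2% of all). Box A as TGGCNNAGT was in 7.84% and 12.6% (11.7% of all). A run of TTTT, the letters at which RNA polymerase III stops, was within 30 bp after the gene in 94.1% and 95.8% (95.5% of all). In the 200 bp centred on the summit, TATCGATA, the DNA replication-related element found at many fly promoters, was in 2 of the 36 tRNA peaks (5.56%, at tRNA:His-GTG-1-3 and tRNA:Trp-CCA-2-2) against 2.74% of all 6066. Both summits lay at protein-coding starts, 44 bp from CG8490 and 7 bp from CG30122, and 0 of the 25 tRNA peaks over 500 bp from such starts had it. GAGAGAG and CACACAC, searched like TATCGATA on both strands, were in 1 peak each (2.78%), against 8.62% and 11.2% of all. The median GC content of the window was 37.5% at tRNA peaks and 41.5% over all peaks. Only 11 of the 36 tRNA peaks lay within 500 bp of a protein-coding start, against 3362 of the 6066. GC content and the 2 repeats were not compared between tRNA peaks and all peaks at like distance from such starts. Genes with an intron were bound in 3 of 16 cases, and genes inside a protein-coding gene in 22 of 134 (16.4%) against 29 of 156 outside (18.6%).

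Arm 2R held 28 of the 51 bound genes, through 17 of the 33 peaks that were the strongest at a bound gene. There 28.6% of 98 tRNA genes were bound (interval 20.6 to 38.2), against 12.0% of the 192 on the other arms (23 genes). The share of protein-coding genes bound on 2R was 24.0%, between the 22.5% of 2L and the 26.2% of 3R. tRNA genes were bound in 3 of 41 cases on 2L (7.32%), 5 of 48 on 3L (10.4%), 14 of 79 on 3R (17.7%) and 1 of 24 on X (4.17%), and chromosome 4 has no tRNA gene. Protein-coding genes also had their lowest share on X, 14.8%. Away from protein-coding starts the contrast remained, with 19 of 76 genes (25.0%) on 2R and 11 of 135 (8.15%) elsewhere. Both replicates had it among their leading peaks, with 30 and 19 genes on 2R and 23 and 16 elsewhere. The contrast was smaller in the pooled list, 62.2% on 2R against 46.4% elsewhere.

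**Figure D4:**
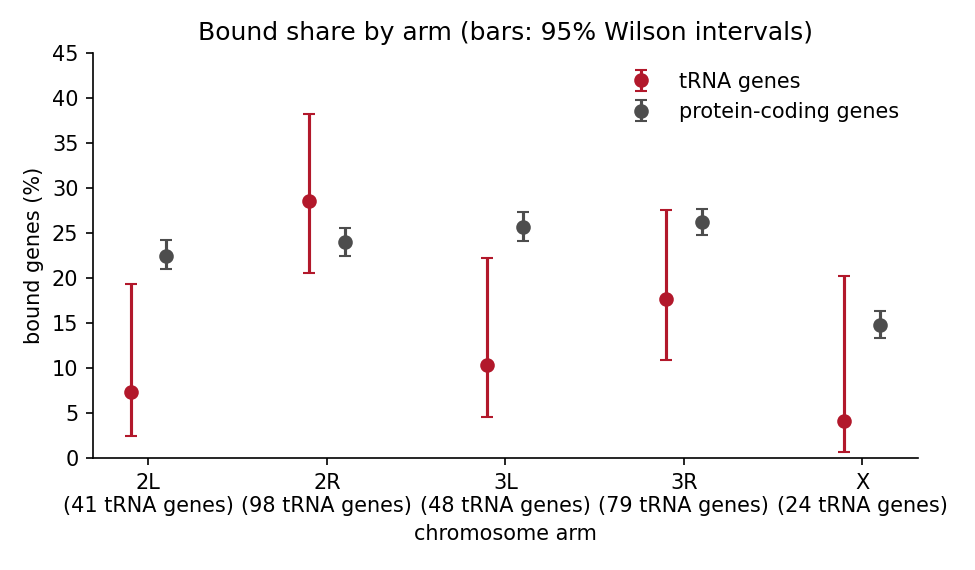
Share of bound genes (%, y axis) on each chromosome arm (x axis) for tRNA genes (red) and protein-coding genes (grey); bars are 95% Wilson intervals. The tRNA share is highest on 2R, 28.6%, and lowest on X, 4.17%, and the protein-coding share is also lowest on X, 14.8%, and lies between 22.5% and 26.2% on the other arms shown.

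The replicates differed at tRNA genes. When the 6066 leading peaks of each replicate replaced the thresholded list, 53 tRNA genes were bound in replicate 1 and 35 in replicate 2. The protein-coding share moved the other way, 19.9% in replicate 1 and 25.4% in replicate 2. A total of 26 genes were bound in both, which is 49.1% of replicate 1's genes and 74.3% of replicate 2's. Counted as peaks, 50.0% of the 36 at tRNA genes were among the leading peaks of both replicates, against 62.7% of all thresholded peaks. Over 500 bp from protein-coding starts these shares were 44.0% and 62.1%, and nearer to them they were 63.6% and 63.1%. Of the 33 tRNA peaks with a summit within 200 bp in both replicates' lists, 25 (75.8%) ranked higher in replicate 1, against 49.3% of the 5814 thresholded peaks matched in both. The median ranks of these tRNA peaks were 3176 and 4714, and of all matched peaks 2990.5 and 2914.5. Among peaks over 500 bp from protein-coding starts, 19 of 23 at tRNA genes (82.6%) ranked higher in replicate 1, against 54.4% of all such peaks. Of the 10 matched tRNA peaks nearer to protein-coding starts, 6 did. The largest ratio of ranks in favour of replicate 1 was 14.9, at the 2 Gln genes above. Among matched peaks the largest in favour of replicate 2 was at tRNA:Leu-TAA-2-1, where the replicate 2 rank was 0.236 of the replicate 1 rank.

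**Figure D5:**
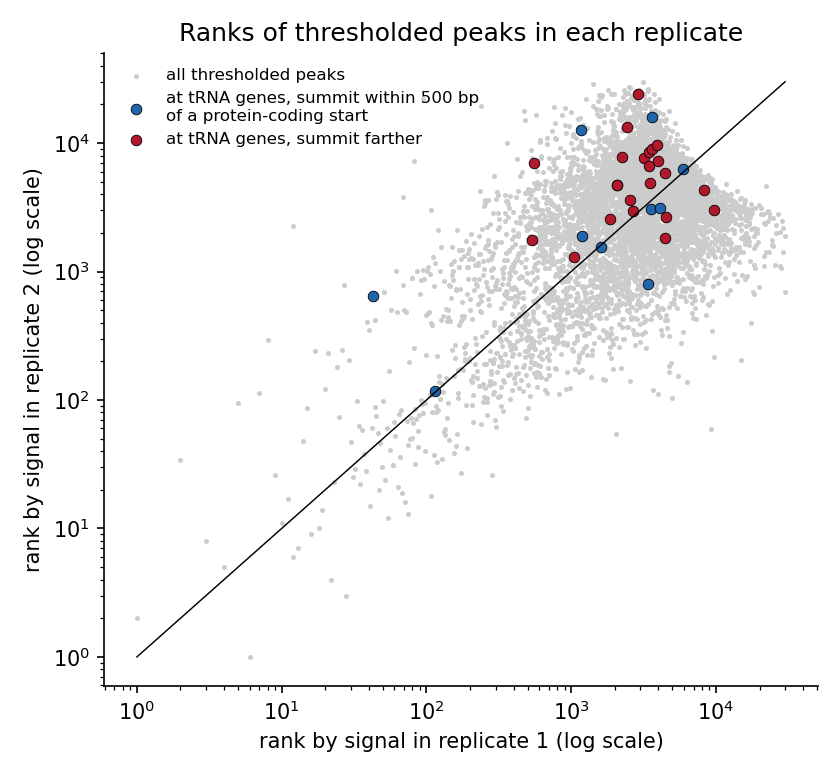
Rank by signal in replicate 1 (x axis) and replicate 2 (y axis), both on log scales where 1 is the strongest, for thresholded peaks with a summit within 200 bp in both lists: all peaks (grey), tRNA peaks within 500 bp of a protein-coding start (blue) and tRNA peaks farther from one (red). The line marks equal ranks; 19 of the 23 red points lie above it, with a higher rank in replicate 1.

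The pooled list reached further, with a summit within 500 bp of 150 tRNA genes (51.7%). Protein-coding genes stood at 53.3% in that list. Of the tRNA genes over 1000 bp from protein-coding starts 106 (50.2%) had a pooled summit, against 20.4% of other non-coding genes. Each replicate's whole list reached 157 and 150 tRNA genes, and 122 had a peak in both. No list had a summit in reach of 104 tRNA genes. Other genes were not counted in the whole replicate lists, so whether these tRNA counts are high or low cannot be told. The pooled and replicate lists hold background peaks, so the shares and counts from them are not of bound genes.

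Other genes of RNA polymerase III were bound in 4 of 10 cases, beside 8.68% of all other non-coding genes and 17.6% of tRNA genes. snRNA:7SKa, whose RNA restrains the elongation factor P-TEFb, had a peak of 898.3 with its summit 213 bp downstream of the start and ranks of 102 and 476. RNaseMRP:RNA, the RNA of an enzyme that cuts ribosomal RNA precursors, had 455.1, at 300 bp downstream, with ranks of 523 and 1770. snRNA:U6:96Ab and snRNA:U6:96Ac, copies of the U6 spliceosomal RNA gene, shared a peak of 186.9 with ranks of 3379 and 7183. All 3 peaks ranked higher in replicate 1. The other 6 genes had no summit in reach in any list: both copies of 7SL RNA (of the signal recognition particle), RNaseP:RNA, snRNA:7SKb, snRNA:U6:96Aa and snRNA:U6atac. The 96 genes of the 5S ribosomal RNA array on 2R had none either. The sources used here do not say how reads from repeated copies were treated, so this 0 does not show that the array was unbound.

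Lists of protein-coding genes of the tRNA pathway were drawn up from general knowledge, with earlier results of these data known. Of their genes 20 of 54 were bound (37.0%), beside 25.9% of all protein-coding genes. No interval was set on the 37.0%, and the difference was not tested. Of 10 RNA polymerase III subunit genes found among 21 symbols, 2 were bound, and the higher signal was 798.6 at Polr3E. Of the factors and regulators, 5 of 10 were bound: Bdp1 (1183) and Brf (823.8), which are subunits of TFIIIB, La (244.1), which holds the ends of new RNA polymerase III transcripts, Pbp95 (184.2), of the complex that reads snRNA promoters, and Myc (144.6), a growth regulator. Of 34 processing and modification genes found among 49 symbols, 13 were bound. The strongest was Tcs5 (2243), which encodes a kinase of the complex that makes threonylcarbamoyladenosine in tRNA. Elp6 (961.4) and Elp5 (749.8) encode Elongator subunits that act on wobble uridines, and Trmt6 (678.9) encodes a subunit of a tRNA adenosine methyltransferase. They were followed by scu (515.8), of the mitochondrial RNase P, and RluA-1 (439.9), of the pseudouridine synthase family. Of the 20 bound genes 17 ranked higher in replicate 2 and 3 in replicate 1, the opposite balance to the tRNA peaks. Of all matched thresholded peaks within 500 bp of protein-coding starts, 45.1% ranked higher in replicate 1. At Bdp1 the ranks were 297 and 70, and at Tcs5 they were 54 and 12.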

How the data were processed

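Peak lists from 2 biological replicates of whole adult male flies were used, on the dm6 build. The authors deposited 1 list per replicate and 1 pooled list, which served as input to an irreproducible discovery rate threshold, and 1 thresholded list, per the file headers and accompanying notes. For every peak the authors deposited the signal value of their caller, of unstated scaling, and the −log10 of a q-value. The caller, aligner, versions and threshold were not given in the sources used here. Signal was used only within a list, and ranks count the peaks on the 6 arms.

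Gene starts came from Ensembl release 115. The nearest summit within 500 bp made a gene bound, and values are of the strongest peak in that distance. Box motifs were searched on the gene's strand. The call within 500 bp and the signed distance were tested on simulated summits at tRNA genes alone in their cluster. Other steps were not tested in this way. The members, gene lists and motifs were chosen with earlier results of these data known. Genes named were the 15 bound tRNA genes of highest signal, the 8 of highest signal over 1000 bp from protein-coding starts, those at the 500 bp limit, those with extreme rank ratios, and up to 6 bound genes per pathway list. tRNA:SeC-TCA-1-1, the only gene of its isotype, and the 3 genes that hold a summit were named after their values were seen, and not every gene with an extreme rank ratio is printed. Alternatives were other distances, the 3033 strongest peaks, other lists, gene-body overlap, cluster gaps and each replicate's 6066 leading peaks. Leaving out 2R, leaving out promoter summits, a 100 bp limit to the gene body and the broader box A and box B letters were added after seeing the data. The dm3 lists were not used, and 1 gene of the pathway lists is not reported here by name. Python 3.11.15, numpy 2.4.6, scipy 1.17.1 and matplotlib 3.10.9 were used.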

Additional observations from a re-analysis of the deposited data

How the results depend on the processing

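The share of tRNA genes bound (17.6%) moved to 7.59% with the 3033 strongest peaks, where protein-coding genes stood at 13.4%, to 51.7% with the pooled list, to 9.66% when each summit was given only to its nearest start, and to 5.52% with summits within 100 bp of the gene body. The share over 1000 bp from protein-coding starts (14.2%) moved to 6.16% with the 3033 strongest peaks (other non-coding genes, 2.62%), 50.2% with the pooled list and 8.53% with overlap of the gene body. With each cluster counted once it was 13.7%. No shares of other genes were set beside the cluster, nearest-start, 100 bp and gene-body settings. Replicate 1's leading peaks gave 18.3% of tRNA genes, against 19.9% of protein-coding genes at 1 start each, and replicate 2's gave 12.1% against 25.4%. For tRNA genes far from protein-coding starts the shares were 14.7% and 10.9%, against 5.14% and 4.61% of other non-coding genes. Clusters stood at 22.2% and 13.9%. The pathway lists stood at 27.8% and 46.3%, and all protein-coding genes also rose from replicate 1 to replicate 2. Without 2R, 12.0% of tRNA genes were bound, and with summits within 500 bp of protein-coding starts left out, 13.8%. No paired analysis was possible because there was 1 group. Depth is unknown, and small clusters and isotypes limit every share given for them.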

Other observations

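Some isotypes had many genes with a summit in the pooled list and few in the thresholded one. Pro had 12 of 17 genes with a pooled summit in reach and 1 bound, and Trp had 7 of 8 and 1. Arg, the isotype with the most genes, had 7 of 26 with a pooled summit. Of all tRNA genes, 51.7% had a pooled summit and 17.6% were bound. All 6 copies of tRNA:Glu-TTC-1 had a pooled summit and 4 were bound, while of the 9 copies of tRNA:Glu-CTC-3 1 had a pooled summit and 0 were bound. By replicate, Ala had 5 genes bound with replicate 1's leading peaks and 1 with replicate 2's, Ile had 4 and 1, and iMet had 0 and 2.

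The annotation lists 5 tRNA pseudogenes on these arms, which were not counted among the 290 genes. None had a thresholded summit within 500 bp, beside 17.6% of tRNA genes, and 2 had a pooled one, beside 51.7%. In the pooled list tRNA:Ile-AAT-2-1Psi had a summit of signal 113.9 at −199 bp and tRNA:Glu-CTC-5-1Psi one of 61.03 at −325 bp. Neither peak was the pseudogene's alone. The former was also in reach of tRNA:Arg-TCG-2-2, at −493 bp, and the latter of tRNA:Glu-CTC-2-2, at 70 bp.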
